A study of Anopheles gambiae with 15 samples.

Results

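Gastric caeca of the malaria mosquito Anopheles gambiae were set against the hindgut with its Malpighian tubules, both dissected from 4th instar larvae. These are the sections at the front and the rear of the gut tube that was dissected. The comparison rests on the 6 arrays whose titles name these sections, 3 of gastric caeca and 3 of hindgut, out of 15 in the series. Larvae of the G3 strain were raised at 28 °C, and each array of a gut section holds RNA of 1000 dissected guts. Larvae were cooled on ice and the guts were dissected in 70% ethanol, then cut into the sections, so that all sections of a repeat come from 1 pool of larvae. The labels describe no such dissection for whole larvae, so handling and tissue cannot be told apart where a section is set against them. The other 9 arrays, 3 each of anterior midgut, posterior midgut and whole larvae (200 larvae per array), entered the fit to estimate the spread and are described here only where they bear on the difference between caeca and hindgut. Levels are log2 expression values per probe set, a group of short probes summarised into 1 value, and a difference of 1 on this scale is 2-fold. A pool of dissected tissue does not separate fewer cells of a type from less RNA per cell.

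The gastric caeca are blind pouches that open into the front of the larval midgut. Their cells secrete digestive enzymes, absorb nutrients and move ions. The Malpighian tubules join the gut where midgut meets hindgut and form the primary urine, driven by a proton pump, the V-type ATPase. The hindgut then takes up or secretes ions and water before the urine leaves the larva. The dissection kept hindgut and tubules together, so a transcript high in that sample may come from either organ. No table used here gives the gene behind a probe set ID, so marker genes of these organs could not be read and the dissected section is known from the labels alone.

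The 3 caeca arrays correlated with each other at r = 0.979 to 0.984 over 16884 mosquito probe sets and the 3 hindgut arrays at 0.981 to 0.987, while caeca arrays correlated with hindgut arrays at 0.848 to 0.886. The points of these correlations are probe sets and not samples. Over all probe sets the SD among arrays of a section, as a root mean square, was 0.242 log2 units in caeca and 0.237 in hindgut. The level of the 3' end minus that of the 5' end of actin and Gapdh control transcripts was 1.06, 0.63 and 0.79 log2 units in the caeca arrays, against 0.21, 0.26 and -0.22 in the hindgut arrays (exact permutation p = 0.1, two-sided, 3 arrays per group, and no smaller p is possible with 3 against 3). The anterior midgut, posterior midgut and whole-larva arrays read 0.67 to 1.12, a range much like that of caeca. Hindgut arrays thus stood apart from all others, with less weight on the 3' end of these control transcripts. The part of this in the differences between sections, and in the likeness of midgut to caeca, was not tested.

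Of the 16884 probe sets, 1431 (8.48%) were called, that is, differed at least 2-fold with a limma adjusted p under 0.05. Gastric caeca were higher at 452 (2.68% of those tested) and lower at 979 (5.80%), so 31.6% of the calls were higher in caeca. The median difference among calls was 3.59-fold for the probe sets higher in caeca and 3.24-fold for those lower in caeca, with median standard errors of 0.32 and 0.27 log2 units. The size of the excess of lower calls depended on how arrays were scaled. After a further quantile normalization 515 were higher and 700 lower, or 42.4% higher. Values of an array spread over probe sets with an SD of 1.75 ± 0.04 log2 units in caeca and 1.84 ± 0.02 in hindgut (mean ± SD, n = 3 each), a spread that the further normalization makes equal on all arrays.

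**Figure D1:**
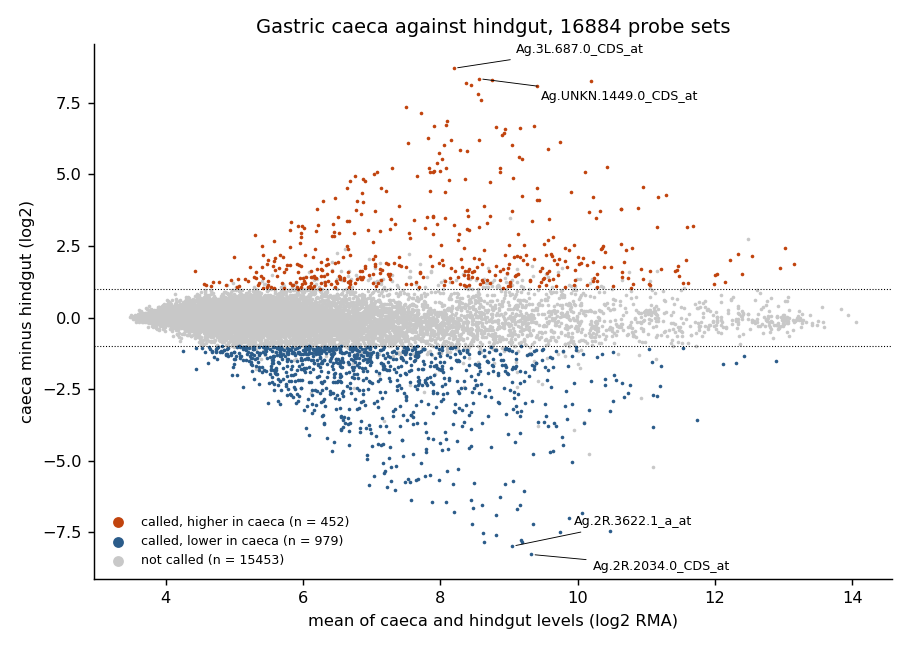
Each point is 1 probe set, with the mean of its caeca and hindgut levels (log2 RMA) on the x axis and the difference caeca minus hindgut (log2) on the y axis. Orange marks the 452 called probe sets higher in caeca, blue the 979 lower in caeca and grey those not called; dotted lines mark 2-fold, and the widest differences on both sides exceed 8 log2 units for single probe sets.

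Most of the excess of lower calls lay among modest differences. At 4-fold or more, 202 probe sets were higher and 385 lower in caeca, and at 8-fold or more 125 were higher and 187 lower. At 32-fold or more the counts were 47 higher and 51 lower, and at 128-fold or more they were 11 and 11. The counts in both directions were thus close at the far ends, while the range under 8-fold held most of the surplus on the hindgut side. The lower section was below the background of 5.37 described with the named probe sets for 26 of the 47 and 35 of the 51, so the fold class of these is not exact.

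**Figure D2:**
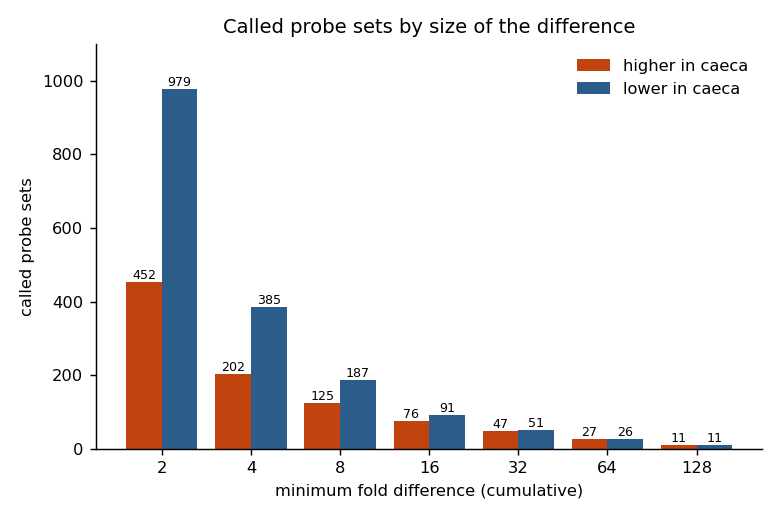
Bars give the number of called probe sets at or above each fold difference on the x axis, counted cumulatively, with orange for higher in caeca and blue for lower in caeca. The orange bar is 452 against a blue 979 at 2-fold, and both are 11 at 128-fold.

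Among probe sets higher in caeca, Ag.3L.687.0_CDS_at differed most, and read 12.59, 12.45 and 12.61 in the caeca arrays, against 3.97, 3.79 and 3.79 in the hindgut arrays. The difference was 8.70 ± 0.32 (SE) log2 units, or 415-fold (limma adjusted p = 1.8e-09). Next came Ag.UNKN.1449.0_CDS_at with 12.94, 12.63 and 12.63 in caeca, against 4.34, 4.40 and 4.45 in hindgut, 323-fold higher in caeca (adjusted p = 2.3e-09). Both were near the top of the scale on all caeca arrays and at background on all hindgut arrays, with no overlap between sections. They were also near background along the tube between, with means of 4.98 and 5.29 in anterior midgut and 4.58 and 5.20 in posterior midgut, and stood at 10.61 and 10.50 in whole larvae.

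Among probe sets lower in caeca, Ag.2R.2034.0_CDS_at differed most, and read 5.76, 5.19 and 4.63 in the caeca arrays, against 13.37, 13.57 and 13.45 in the hindgut arrays. It was 308-fold lower in caeca, a difference of -8.27 ± 0.33 (SE) log2 units (adjusted p = 3.8e-09). Ag.2R.3622.1_a_at followed with 5.45, 5.17 and 4.56 in caeca, against 13.09, 13.07 and 12.97 in hindgut, 252-fold lower in caeca (adjusted p = 4.4e-06). High levels were not limited to the hindgut sample, since posterior midgut read 12.63 ± 0.10 for Ag.2R.2034.0_CDS_at (SD, n = 3) and 9.75 ± 0.94 for Ag.2R.3622.1_a_at, while both were close to their caeca level in anterior midgut, at 6.04 ± 0.70 and 5.02 ± 0.33. The lower group of each of these 4 probe sets had a mean below the background of 5.37, the 95th percentile of probe sets whose IDs start with a number, so these folds are not exact.

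**Figure D3:**
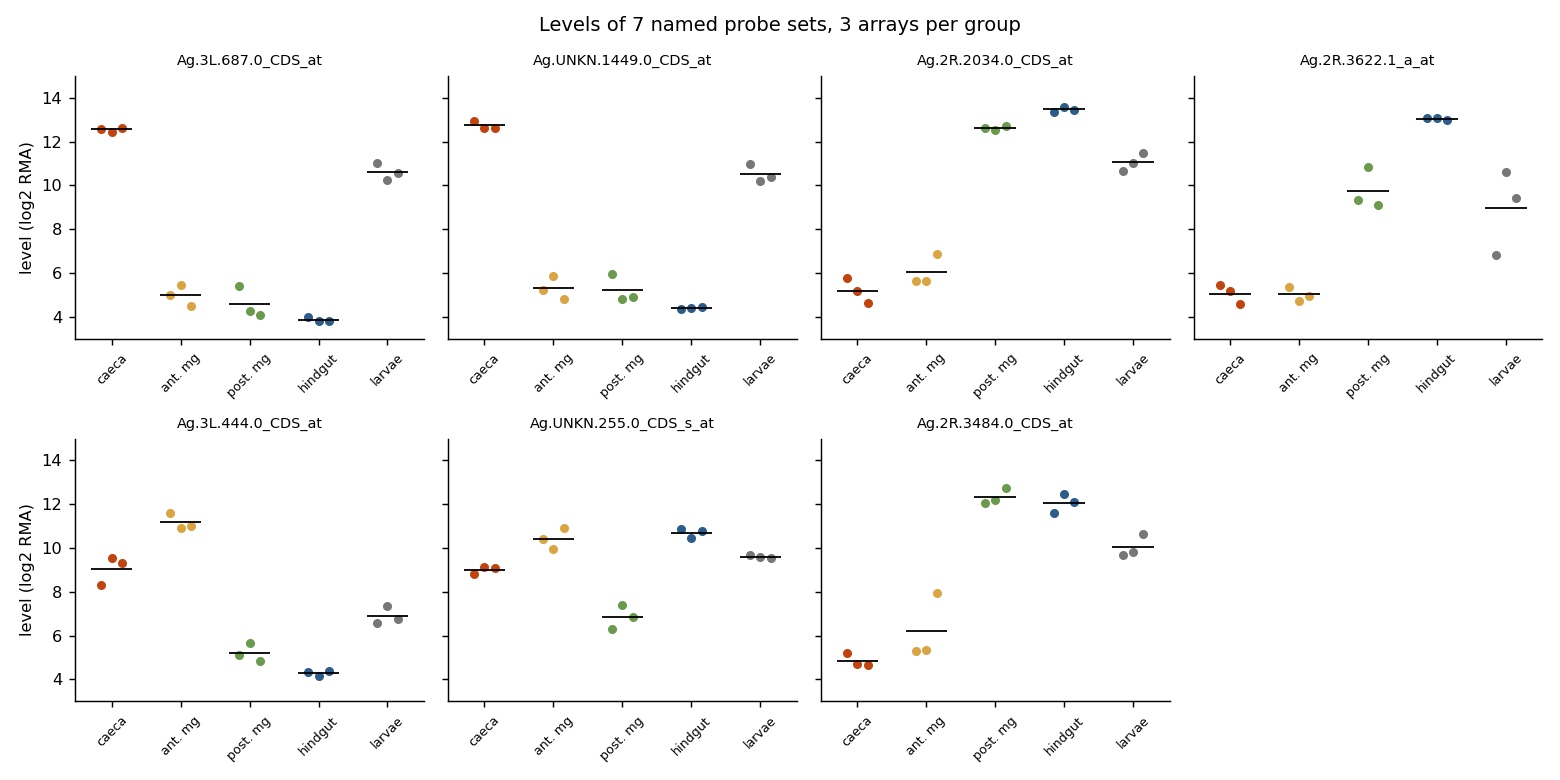
Each panel is 1 probe set named in the text; points are single arrays and bars group means, with the level (log2 RMA) on the y axis and, along the x axis, gastric caeca, anterior midgut, posterior midgut, hindgut and whole larvae. Ag.3L.687.0_CDS_at is high in caeca and in whole larvae, whereas Ag.2R.2034.0_CDS_at is high in posterior midgut, hindgut and whole larvae.

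Read against that single background level, 6927 probe sets were above it in caeca and 6956 in hindgut, with 6060 above it in both, 867 in caeca but not hindgut and 896 in hindgut but not caeca. Levels were normalized between arrays, which with a single cutoff tends to make such counts alike. The closeness of 6927 and 6956 therefore does not measure how many transcripts each section expresses. Of the 452 probe sets higher in caeca, 321 were above background in both sections and 131 were at or below it in hindgut. Of the 979 lower in caeca, 619 were above background in both and 360 at or below it in caeca. In 20 of the 1431 calls both sections were at or below it. Most calls in both directions were therefore differences in amount between sections that both carried a signal. The median difference was 5.62-fold where the hindgut fell to background and 3.34-fold where both had a signal for the probe sets higher in caeca, and 3.61-fold and 3.14-fold for those lower in caeca, with caeca as the section at background. These counts depend on the background chosen. With the lower level of 4.02, the 95th percentile of probe sets whose IDs start with Pf, 446 of the 452 and 969 of the 979 were above it in both sections.

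Midgut levels of the called probe sets were set beside those of caeca and hindgut. For the 452 probe sets higher in caeca, the median level was 9.26 in caeca and 6.20 in hindgut, with 6.72 in anterior and 7.68 in posterior midgut and 7.41 in whole larvae. Posterior midgut lay within 2-fold of caeca for 241 of them (53.3%) and anterior midgut for 145 (32.1%). Posterior midgut lay within 2-fold of hindgut for 195 (43.1%) and anterior midgut for 217 (48%), and a probe set can count in both. For the 979 lower in caeca, the median level was 5.78 in caeca and 7.92 in hindgut, with 5.46 in anterior and 5.82 in posterior midgut and 6.35 in whole larvae. Here anterior midgut lay within 2-fold of caeca for 825 (84.3%) and posterior midgut for 837 (85.5%), and within 2-fold of hindgut for 66 (6.74%) and 107 (10.9%). Probe sets lower in caeca than in hindgut were therefore mostly within 2-fold of their caeca level in both midgut parts. Those higher in caeca divided, some near their caeca and some near their hindgut level in each part. For 360 of the 979 the caeca level was at or below the background of 5.37, where levels lie close whatever the RNA. No share over all probe sets is given beside these shares, and the contrast between directions was not tested. Caeca and hindgut levels chose these probe sets and are given as a description.

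**Figure D4:**
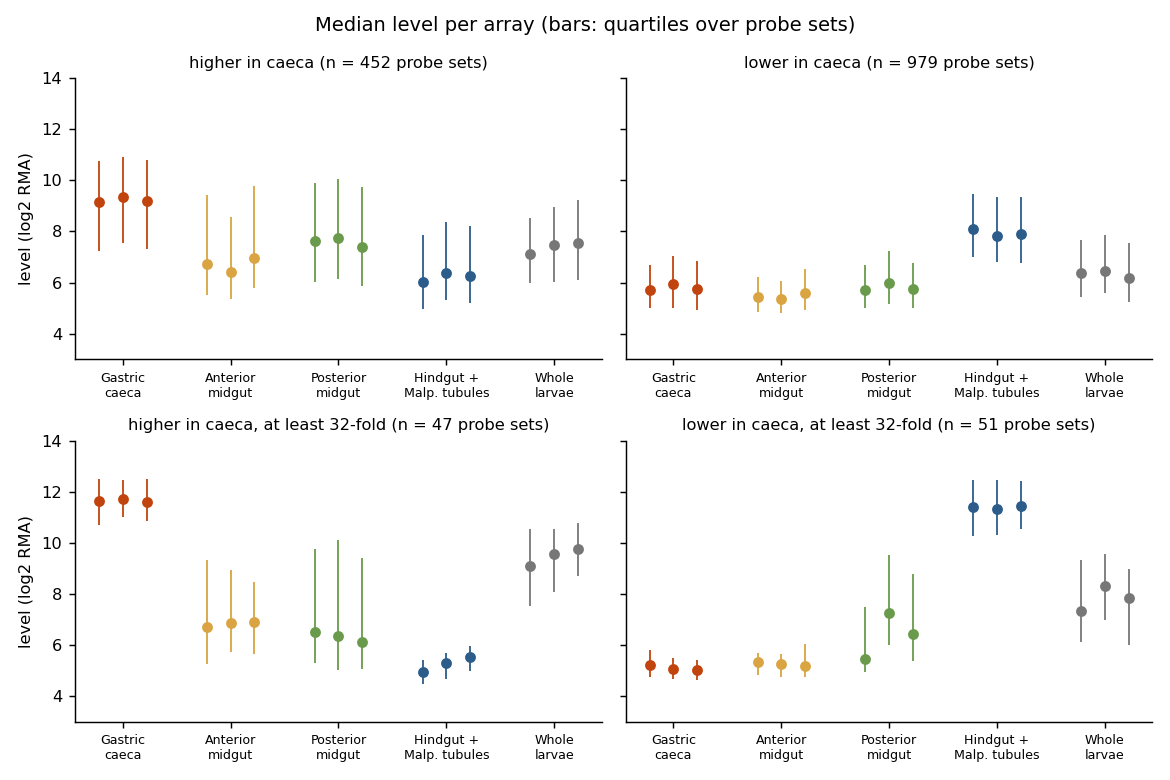
Points are the median level (log2 RMA, y axis) of a set of called probe sets on each of the 3 arrays per group along the x axis, and bars span the quartiles over probe sets. The upper panels hold all 452 higher and 979 lower probe sets, the lower panels those that differ at least 32-fold; in the lower right panel posterior midgut array 2 stands at 7.28 and array 1 at 5.46.

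Probe sets that differed at least 32-fold are described apart. The 47 higher in caeca read medians of 11.67, 11.72 and 11.63 in the caeca arrays, against 4.96, 5.31 and 5.55 in the hindgut arrays, and 6.72 to 6.92 in anterior midgut and 6.11 to 6.50 in posterior midgut. Posterior midgut came within 2-fold of caeca for 8 of these 47 and anterior midgut for 4, and within 2-fold of hindgut for 22 and 18. The 51 lower in caeca read 5.22, 5.07 and 5.03 in the caeca arrays, against 11.42, 11.34 and 11.46 in the hindgut arrays, and 5.33, 5.25 and 5.17 in anterior midgut. Anterior midgut lay within 2-fold of caeca for 49 of these 51, and caeca were below background for 35 of the 51. In whole larvae the mean lay between the caeca and hindgut means for all 47 and all 51. The anterior midgut mean did so for 40 and 36, and the posterior midgut mean for 37 and 48. These probe sets were picked for a wide gap between caeca and hindgut, which largely fixes that other groups lie within it.

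Posterior midgut arrays disagreed on the 51 probe sets lower in caeca, with medians of 5.46, 7.28 and 6.43 on arrays 1, 2 and 3. Array 2 was the highest of the 3 for 42 of the 51 (82.4%), against 44.6% of the 7823 probe sets above background in caeca or hindgut. It exceeded array 1 by at least 2-fold for 33 of the 51 (64.7%), against 2.63% of the 7823. On the same arrays, the 47 probe sets higher in caeca had medians of 6.50, 6.35 and 6.11. Array 2 exceeded array 1 by at least 2-fold for 9 of these 47 (19.1%), also above the 2.63% of the 7823. Arrays 1 and 2 were each the highest for 22 of the 47. Array 3 was the highest for 3 (6.38%), against 29.1% of the 7823, so the arrays were uneven on this list too. Single probe sets of the 51 differed in how array 2 stood to the others. Ag.2R.2034.0_CDS_at read 12.64, 12.53 and 12.72 in posterior midgut, an even and high level on all 3 arrays, whereas Ag.2R.3622.1_a_at read 9.33, 10.82 and 9.09. What sets the level of array 2 was not tested.

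Comparisons among anterior midgut, posterior midgut and whole larvae use no caeca or hindgut array in their means. Their arrays did enter the spread per probe set in the fit that called the 452 and the 979. The same spread enters these comparisons, so a probe set with a small spread is called more readily in both. Shares of calls above those of all probe sets are therefore in part built in. Anterior midgut array 2 stood apart from the other arrays. The SD of its values over probe sets was 1.40 log2 units, against 1.59 to 1.85 on the others, its background by number IDs was 6.56, against 5.17 to 5.83, and its median difference between probe sets marked CDS and UTR in their IDs was 0.38, against at most 0.09. Between anterior and posterior midgut, 0.492% of all tested probe sets were called higher and 2.74% lower in anterior midgut. Among the 452 higher in caeca, 35 were higher in anterior midgut (7.74%) and 110 lower (24.3%), with a median difference of -0.19 log2 units against 0.03 over all tested probe sets. Among the 979 lower in caeca, 2 were higher in anterior midgut and 117 lower (12%), with a median of -0.24. Of the 7823 probe sets above background in caeca or hindgut, 1.01% were higher and 5.83% lower in anterior midgut. The 24.3% and 12% lower in anterior midgut thus exceeded the share among probe sets with a signal, while the higher share did so for the first set alone; these differences between shares were not tested. Without anterior midgut array 2, 42 of the 452 were higher and 96 lower, and 2 of the 979 were higher and 91 lower. The same lists, chosen with all arrays, were also read in a fit with only anterior and posterior midgut arrays. There the counts were 30 and 86 for the first set and 1 and 60 for the second. Within the 51 lower in caeca by at least 32-fold, 21 were called lower in anterior midgut. That 21 was 16 without posterior midgut array 2 or array 3 and 10 with only the arrays of both midgut parts in the fit. Within the 47 higher by at least 32-fold, 11 were called higher and 5 lower. That 11 was 5 without anterior midgut array 1 or without posterior midgut array 3, 6 without posterior midgut array 2 and 7 without posterior midgut array 1.

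Single probe sets give this contrast its widest values. Ag.3L.444.0_CDS_at read 8.32, 9.54 and 9.32 in the caeca arrays, against 4.36, 4.14 and 4.39 in the hindgut arrays, and was 62.4-fold higher in anterior than in posterior midgut (11.18 ± 0.38 and 5.21 ± 0.43, adjusted p = 4.7e-07). Its levels were high in both front sections and below background in posterior midgut and hindgut, so neither fold is exact. Ag.UNKN.255.0_CDS_s_at ran otherwise, at 8.81, 9.14 and 9.08 in caeca, against 10.85, 10.48 and 10.79 in hindgut, yet 12.1-fold higher in anterior than in posterior midgut (10.43 ± 0.49 and 6.84 ± 0.55, adjusted p = 4.6e-06). Posterior midgut was thus the section with the low level. Ag.2R.3484.0_CDS_at read 5.22, 4.69 and 4.67 in caeca, against 11.60, 12.46 and 12.12 in hindgut, and was 70-fold lower in anterior than in posterior midgut (6.19 ± 1.51 and 12.32 ± 0.38, adjusted p = 2.4e-05). Together with Ag.2R.2034.0_CDS_at, which was 96.1-fold lower in anterior than in posterior midgut (adjusted p = 2.9e-07), it was high in posterior midgut and hindgut alike, and both were below background in caeca.

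Against whole larvae, posterior midgut was called higher for 176 (38.9%) and lower for 66 (14.6%) of the 452 probe sets higher in caeca, where 3.72% and 5.17% of all tested probe sets were called, and 7.91% and 8.68% of the 7823 with a signal. For the 979 lower in caeca it was higher at 77 (7.87%, close to the share of all probe sets with a signal) and lower at 241 (24.6%). Anterior midgut was called higher for 118 and lower for 123 of the 452, and higher for 6 and lower for 343 of the 979, where 2.35% and 7.95% of all tested probe sets were called, and 4.7% and 14.7% of those with a signal. Probe sets lower in caeca were thus seldom called higher in anterior midgut than in whole larvae. For 630 of the 979 there was no call, and these may lie on either side. The SD among arrays was widest in these groups, at 0.470 log2 units in anterior midgut and 0.442 in whole larvae. With only their arrays in the fit these 4 counts were 76, 66, 2 and 203. The count of 6 was 3 without anterior midgut array 1, 14 without array 2 and 27 after quantile normalization. The comparisons of this paragraph share the whole-larva arrays, and those with anterior against posterior midgut share the midgut arrays.

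**Figure D5:**
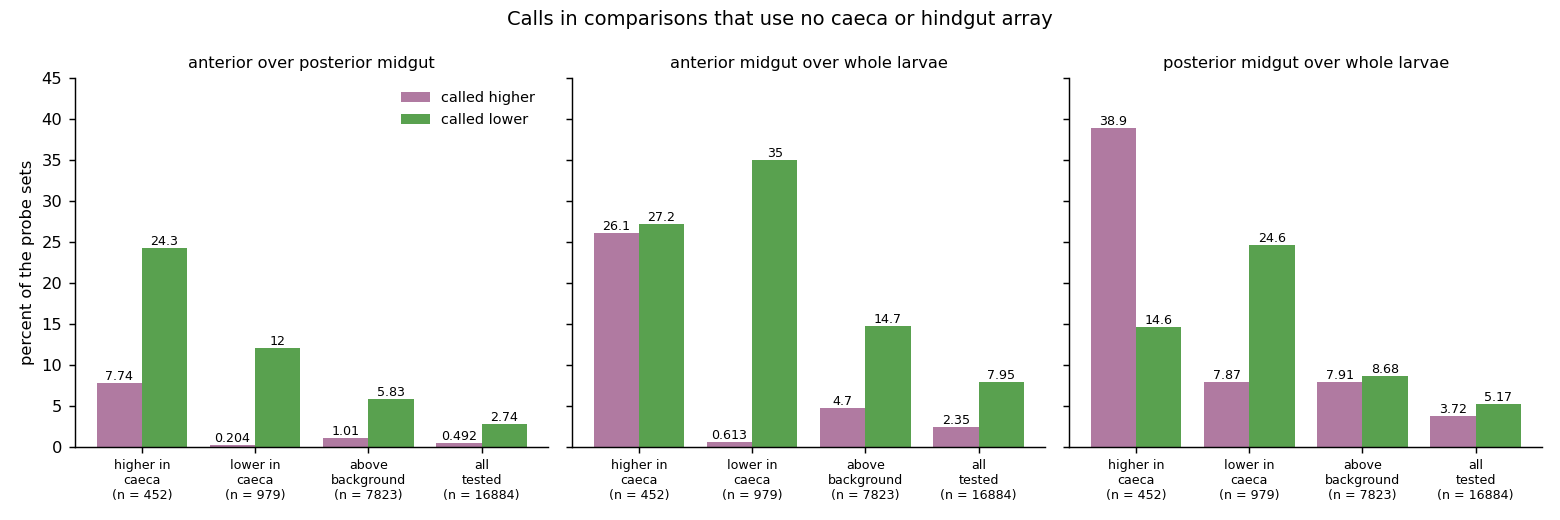
Bars give the percentage of probe sets (y axis) called higher (purple) or lower (green) in 3 comparisons that use no caeca or hindgut array in their means. The sets are the 452 probe sets higher in caeca, the 979 lower in caeca, the 7823 above background in either section and all 16884. In the right panel 38.9% of the probe sets higher in caeca were called higher in posterior midgut than in whole larvae, against 3.72% of all.

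Probe set IDs carry further fields that no source used here defines. By the second field, which reads like a chromosome arm, 3.21% of 2L, 2.61% of 2R, 3.81% of 3L, 2.3% of 3R and 2.78% of X probe sets were called higher in caeca. Lower calls were 6.16%, 6.64%, 6.09%, 6.57% and 4.35% in the same order. Among these 5 arms, the highest share of higher calls was in 3L and the lowest share of lower calls in X. The 1938 IDs marked UNKN had 0.98% higher and 2.63% lower, and 27.4% of them were above background in caeca or hindgut, against 47.3% to 50.4% of the 5 named arms. Calls fell on 419 different ID numbers for the probe sets higher in caeca and 866 for those lower. Where an ID number with a call carried several probe sets, 31 of 67 had at least 2 of them higher in caeca and 92 of 225 at least 2 lower. In 4 ID numbers, probe sets were called in opposite directions.

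Some IDs contain CDS and some UTR, words for the coding and the untranslated part of a transcript. Of 14060 CDS probe sets, 385 (2.74%) were higher and 793 (5.64%) lower in caeca. Of 790 UTR probe sets, 23 (2.91%) were higher and 66 (8.35%) lower. Among all tested probe sets 2.68% were higher and 5.80% lower. Signals above background in caeca or hindgut were found for 44.3% of CDS and 71.4% of UTR probe sets. On the 671 ID stems that carry both words, 19 of 675 CDS probe sets were higher and 87 lower. Of the 674 UTR probe sets on these stems, 19 were higher and 57 lower. The median CDS minus UTR level over these stems was -0.22, -0.17 and -0.14 log2 units on the caeca arrays, against -0.01, -0.05 and 0.09 on the hindgut arrays (exact permutation p = 0.1, two-sided, 3 arrays per group, the smallest p possible). Caeca and hindgut arrays did not overlap in this measure. On these stems 17.9% of the CDS calls and 25% of the UTR calls were higher in caeca, with median differences of -0.17 and -0.02 log2 units, and this difference between the words was not tested.

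For 12192 probe sets (72.2%), the 95% confidence interval of the difference, unadjusted and per probe set, lay within 2-fold in both directions. That share was 45.6% of the 7823 probe sets above background in caeca or hindgut and 95.2% of the 9061 at or below it in both, where a narrow interval says little about the RNA. Another 3261 (19.3%) were neither called nor bounded within 2-fold. For 268 probe sets without a call the difference was 2-fold or more, with a spread too wide to pass. That spread was estimated over all 5 groups, and its SD was wider in anterior midgut (0.470) and whole larvae (0.442) than in caeca (0.242) and hindgut (0.237). All 3 caeca arrays lay above all 3 hindgut arrays for 23.8% of the tested probe sets and below for 20.2%. Called probe sets almost always had this form, 450 of 452 higher and 975 of 979 lower, which the call rule itself largely fixes. The median difference over all tested probe sets was 0.051 log2 units.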

How the data were processed

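The values are the deposited log2 expression values, made by the authors with RMA per the submitters' processing notes. RMA corrects background, normalizes between arrays and summarises probes, and no version of it is named in the labels. That they are log2 values follows from their range, 3.13 to 14.4. RNA was labelled once with biotin for Affymetrix arrays, per the labels' protocols. Of 22761 probe sets, the 16884 whose ID starts with Ag were tested; 4506 Pf, 290 number, 937 accession and 144 maker's control IDs were left out. The RefSeq table matched 0 tested IDs, and sequences are not used here.

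Group means were estimated over all 15 arrays with limma 3.58.1 (R 4.3.3, lmFit, eBayes, 2.76 prior degrees of freedom, no covariate), with Benjamini-Hochberg adjustment over the tested probe sets. The fit was tested on simulated data. Named probe sets are the 2 with the widest rise and the 2 with the widest fall, without overlap of arrays, and likewise the 2 and 2 called probe sets that differ most between anterior and posterior midgut. Probe sets, lists and tests were chosen with earlier results of these data known. The labels call the 3 arrays of a group biological repeats. Same-numbered caeca and hindgut arrays deviated from their group means with r = -0.19, -0.01 and -0.01, so the fit has no block. Per the labels' protocols the sections of a repeat share their larvae, but no label ties the array numbers to these pools. The level of the bioC control minus that of the cre control rose with array number in caeca, at -4.65, -3.80 and -3.26 log2 units. It rose likewise in both midgut parts and whole larvae, whereas hindgut read -3.34, -3.37 and -3.21. What sets this was not tested.
Alternatives covered the samples in the fit, scaling, filters on dim probe sets, the spread estimate, the test and leaving out arrays. The number of arrays limits precision.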

Additional observations from a re-analysis of the deposited data

Results flagged for a closer look

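A small share of the probe sets outside the comparison differed between caeca and hindgut when all probe sets of the table were fitted together with limma. Of 4506 probe sets with IDs starting with Pf, 3 (0.0666%) were called, all higher in caeca. Of 937 with a sequence accession as ID, 7 (0.747%) were called, 6 of them higher and 1 lower in caeca. Both shares were small beside the tested probe sets, of which that fit called 424 higher and 935 lower among 16884. No probe set with an ID starting with a number (0 of 290, 31 at an unadjusted p under 0.05) and no maker's control (0 of 144, 26 at an unadjusted p under 0.05) was called. They are listed because they lie in data that the comparison does not use. The Pf probe set with the largest difference stood at 9.76 ± 0.39 in caeca and 7.66 ± 0.47 in hindgut (SD, n = 3 each), 4.28-fold higher (limma adjusted p = 0.0015). The accession probe set with the largest difference stood at 7.55 ± 0.45 in caeca and 4.91 ± 0.51 in hindgut, 6.24-fold higher (adjusted p = 0.0036). No source used here states the organism or gene of these IDs.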

How the results depend on the processing

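The counts of 452 higher and 979 lower probe sets stayed within 1.5 times under every alternative run but limma's treat, which tests against 2-fold and gave 170 and 372. The share of higher calls was 31.6%, and 42.4% after quantile normalization; the same normalization kept 437 of the 452 and 688 of the 979 calls. Leaving out a caeca or hindgut array in turn gave 368 to 424 higher and 812 to 981 lower calls. The 6 arrays alone gave 550 and 1071, and the methods' t-test gave 523 and 1056 unadjusted and 366 and 833 adjusted. With the replicate number as a block, 479 were higher and 987 lower in the fit of 15 arrays, and 556 and 1073 in that of 6. Same-numbered caeca and hindgut arrays did not deviate together, and other pairs of groups were not examined for this. The 4 probe sets named for caeca against hindgut and the 4 named for the midgut kept their direction and call throughout. These were 76 and 36 checks, each of 1 probe set under 1 alternative.

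Among the called probe sets, counts between anterior and posterior midgut moved as follows. Of the 452, those higher in anterior midgut numbered 35, and 53 after quantile normalization. Of the 979, those higher numbered 2, with 4 after quantile normalization, 1 with only the midgut arrays and 1 to 6 without single arrays (6 without anterior midgut array 3); those lower numbered 117, and 60 with only the midgut arrays. The count of 6 higher in anterior midgut than in whole larvae was 27 after quantile normalization. Within the 51, the 8 lower in posterior midgut than in whole larvae were 17 without posterior midgut array 2 and 5 without array 1. The cause of these moves was not tested. The share of higher calls among CDS probe sets was 32.7%, and 17.9% on stems with both words. Signal over background limits the comparison: with 5 equal classes of mean level, 0.444% of the dimmest and 22.4% of the brightest were called. The fits with only the arrays compared among midgut and whole larvae, and the repeats for the probe sets at 32-fold or more, were chosen after seeing the data.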

Other observations

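Numbers in neighbouring IDs of an arm were compared as a description, since no source used here states that they follow the order along the chromosome. Of the 803 ID numbers with a probe set lower in caeca and a next number on the array, 102 (12.7%) were followed by another lower in caeca, where 5.93% of all ID numbers with a next number were. At steps of 2, 5 and 10 the shares were 8.16%, 8.28% and 10.3%, against 5.92%, 6.03% and 5.93% of all. The share thus lay above that of all ID numbers at step 10 as well. For probe sets higher in caeca, 18 of 395 (4.56%) were followed by another higher in caeca, where 2.98% of all were. Here the shares at steps of 2, 5 and 10 were 5.64%, 4.63% and 4.53%, against 2.91%, 2.94% and 2.93% of all. These differences were not tested.

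Probe sets with a suffix of a_at were called lower in caeca more often than those ending in at alone, 9.59% of 3327 and 4.52% of 12171, and higher more often as well, 3.31% and 2.46%. Of the a_at probe sets 64.8% were above background in caeca or hindgut, and of the others 40.5% were. The difference between suffixes was not tested.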
